A study of Mus musculus with 15 samples.

Results

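The proteins described here are those of the cytosolic ribosome, read from Affymetrix mouse 430 2.0 arrays of brain vascular cells and aorta from mice that differ in Notch3, a receptor of the Notch family that marks the mural cells of blood vessels (smooth muscle cells and pericytes). Genes were chosen by name: a symbol of Rpl or Rps followed by a number, with an optional letter and an optional x or l at the end, plus Rplp0, Rplp1, Rplp2 and Rpsa, leaving out the S6 kinases and pseudogenes. A probe set, the group of short probes that reports 1 transcript, was used only where the platform annotation gave it a single gene. This left 46 genes on 100 probe sets, of 18193 named genes on 45037 probe sets; 24 genes belong to the large subunit and 22 to the small subunit. A further 29 ribosomal protein symbols, among them Rplp1, Rpl3, Rpl5, Rpl10, Rpl36a and Rpl36al, occur only on probe sets shared with other symbols and are not described. Of the 100 probe sets used, 40 have names ending in _x_at and 3 in _s_at. A single annotated gene does not show that the probes bind no other transcript, and such binding was not tested.

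The study holds 15 arrays from male C57BL6J mice of 10 to 12 weeks. Cells sorted from brain by FACS and labelled SMC/pericyte came from 4 Notch3 +/- and 5 Notch3 -/- mice, 1 array for each mouse, and aorta explants gave 3 arrays of Notch3 +/- and 3 of Notch3 -/-. Every group thus carries at least 1 disrupted copy of Notch3, and the controls are the +/- mice; no wild-type arrays were analysed here. The labels do not say whether the aorta arrays came from separate mice, and a p-value for aorta therefore speaks only of the spread among these samples, which may be technical. Array names are the letters and numbers of the sample titles.

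The cytosolic ribosome pairs a small subunit, which reads the messenger RNA, with a large subunit, which joins amino acids. Its proteins are made in matched amounts, and in vertebrates most of their messenger RNAs begin with a run of pyrimidines (C or T) at the very start, through which growth signals set their translation. They rank among the most abundant transcripts of most cells, which is why several of them, Rplp0 among others, serve as reference genes.

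Pyrimidine runs near the annotated start were more frequent in these genes than over all genes of the reference sequence. The RefSeq promoter table (GRCm38.p6) held 40 of the 46 genes, and a window of 30 bases was read from each annotated start, 15 before it and 15 from it on. A run was counted anywhere in the window, and not only at the start. A run of at least 8 pyrimidines lay in the window of 18 of the 40 genes (45.0%), against 13.9% of all 27025 genes in the table. The motif CTTTC, searched on both strands, was on the gene's own strand in 11 of the 40 (27.5%, against 4.8% of all genes) and on the other strand in 0 of 40 (4.2% of all genes). The windows below are those of genes whose array values are described next, with the longest pyrimidine run in capitals; Rpl7a has the longest run of the 40 genes.
Rpl7a, chr2:26910792-26910821, plus strand: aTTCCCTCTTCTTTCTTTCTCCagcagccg
Rpl38, chr11:114668565-114668594, plus strand: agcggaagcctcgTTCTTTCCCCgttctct
Rps27, chr3:90213634-90213663, minus strand: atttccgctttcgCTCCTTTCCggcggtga
Rps28, chr17:33824548-33824577, minus strand: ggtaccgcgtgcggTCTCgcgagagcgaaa
Rps24, chr14:24490663-24490692, plus strand: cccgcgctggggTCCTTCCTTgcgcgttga
Rplp2, chr7:141447636-141447665, plus strand: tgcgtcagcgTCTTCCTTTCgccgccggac
Rpl41, chr10:128549154-128549183, minus strand: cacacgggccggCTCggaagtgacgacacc
Rplp0, chr5:115559452-115559481, plus strand: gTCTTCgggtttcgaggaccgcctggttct
Of the genes with a window that were higher in brain than in aorta of Notch3 +/- mice, 3 of 5 had such a run, and of those that were lower 5 of 9 had one. A match of letters is a description of these windows only.

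Values are probe-set intensities on a linear scale, which the authors scaled on each array to a target of 150. A gene with several probe sets is represented by the brightest, and differences are on the log2(intensity + 16) scale, which understates those of dim genes. A gene was called at an adjusted p under 0.05 in limma, with Benjamini-Hochberg adjustment over all 22519 probe sets tested. Of the 46 genes, 43 were bright enough to be tested in every comparison but the one between genotypes in aorta, where 42 were, Rps4l falling below the limit there. Rpl3l, Rpl39l and Rps16 were tested in none. The brain arrays held markers of mural cells, such as Acta2, Rgs5 and Pdgfrb at mean intensities of 20581, 13485 and 10227 in the +/- group. They also held Cldn5 of endothelium at 15991, Mbp of oligodendrocytes at 22389, Gja1 of astrocytes at 11583 and Csf1r of microglia at 9697. These were the brightest genes of their lists. Some other markers of mural cells, endothelium and microglia were higher in aorta. Pecam1 of endothelium averaged 99.5 in +/- brain and 378 in +/- aorta, Aif1 of microglia 9.37 and 41.4, and the mural gene Cnn1 251 and 3163. Between these groups 7 endothelial markers were called higher in brain and 1 lower. For microglia the counts were 2 and 1 and for mural cells 6 and 5. For astrocytes they were 6 and 0 and for oligodendrocytes 4 and 0. Of all probe sets 26.5% and 25.2% were called. Aorta held the smooth muscle gene Myh11 at 8314 and the fibroblast gene Dcn at 8456. In mixed cells of this kind, fewer cells of a type and less RNA per cell cannot be told apart. Notch3 itself averaged 2616 in +/- and 210 in -/- brain cells, and 401 and 108 in aorta.

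Ribosomal protein probe sets were bright in all groups but spanned a wide range. In the +/- brain cells the brightest were Rps28, a small protein at the path of the messenger RNA, at 19380 ± 8091 (SD, n = 4), Rps29, a zinc-binding small subunit protein, at 16229 ± 5443, and Rps18 at 13172 ± 3961. In the -/- brain cells Rps28 and Rps29 led again, at 18784 ± 2787 and 15626 ± 2272 (SD, n = 5), followed by Rps18 at 12918 ± 1912. In aorta the order was another: Rps18 at 10399 ± 288 (SD, n = 3) and Rpl13a at 10126 ± 210 came before Rps28 at 9232 ± 325 in the +/- arrays. Rps18 and Rpl13a did not differ beyond their spread there, and in the -/- arrays Rpl13a stood at 10327 and Rps18 at 10172. Intensities of different genes depend on their probes, so this order is one of signals and not of molecules.

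The dim end was held by the paralogues. Rpl3l, the striated muscle form of Rpl3, lay between 2.96 and 48.9 on all 15 arrays, and Rpl39l, the form of Rpl39 known from testis, between 2.03 and 66.8. Rps4l, a paralogue of Rps4x, lay between 15.3 and 153 in brain and between 7.28 and 44.3 in aorta, while Rps4x itself averaged 7045 in +/- brain and 7583 in +/- aorta. Rps16 has a single probe set of its own, which stayed between 0.518 and 2.07 on every array, so this probe set gives no usable level for a gene that all cells need.

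Loss of the second Notch3 copy left no ribosomal protein gene past the threshold in the sorted brain cells. By limma 0 of 43 genes were called, where 0.142% of all probe sets tested were. At an unadjusted p under 0.05 there were 3, all lower in -/-: Rplp0, Rps9 and Rps15, where 4.6% of all probe sets were lower at that p. Values were lower in -/- for 30 genes and higher for 13, with a median log2 difference of -0.13, against 0.01 over all probe sets tested. The groups overlapped for every one of the 43 genes, where 3.3% of all probe sets did not overlap. Large subunit genes had a median of -0.15 (22 tested) and small subunit genes of -0.09 (21 tested).

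Rplp0, the base of the stalk through which the large subunit recruits elongation factors, had the largest difference. Its intensity was 761, 1572, 1994 and 3142 on the +/- arrays E, G, I and H, and 785, 1102, 509, 554 and 953 on the -/- arrays A, B, C, D and F. Array E lay among the -/- arrays, and the other 3 controls lay above all of them. The log2 difference was -1.13 ± 0.33 (SE, adjusted p = 0.316 by limma). Without array E it was -1.50 with an adjusted p of 0.0467, the only call among these genes in this comparison when 1 array was left out; over the arrays left out in turn the adjusted p ranged from 0.0467 to 0.560.

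The partner of Rplp0 in the stalk, Rplp2, differed less: it read 741 to 899 in +/- and 452 to 941 in -/- brain cells, a log2 difference of -0.39 ± 0.19 (SE, adjusted p = 0.558 by limma). Rps9, which lies at the entry of the messenger RNA channel, read 2947 to 3994 in +/- and 1712 to 3340 in -/-, a difference of -0.53 ± 0.19 (adjusted p = 0.401). Rps15, a small subunit protein needed for export of that subunit from the nucleus, read 1349 to 2612 and 870 to 1512, a difference of -0.47 ± 0.21 (adjusted p = 0.521). Rpl6 of the large subunit differed by -0.38 ± 0.18 (adjusted p = 0.543). In all 4 the groups overlapped.

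**Figure D1:**
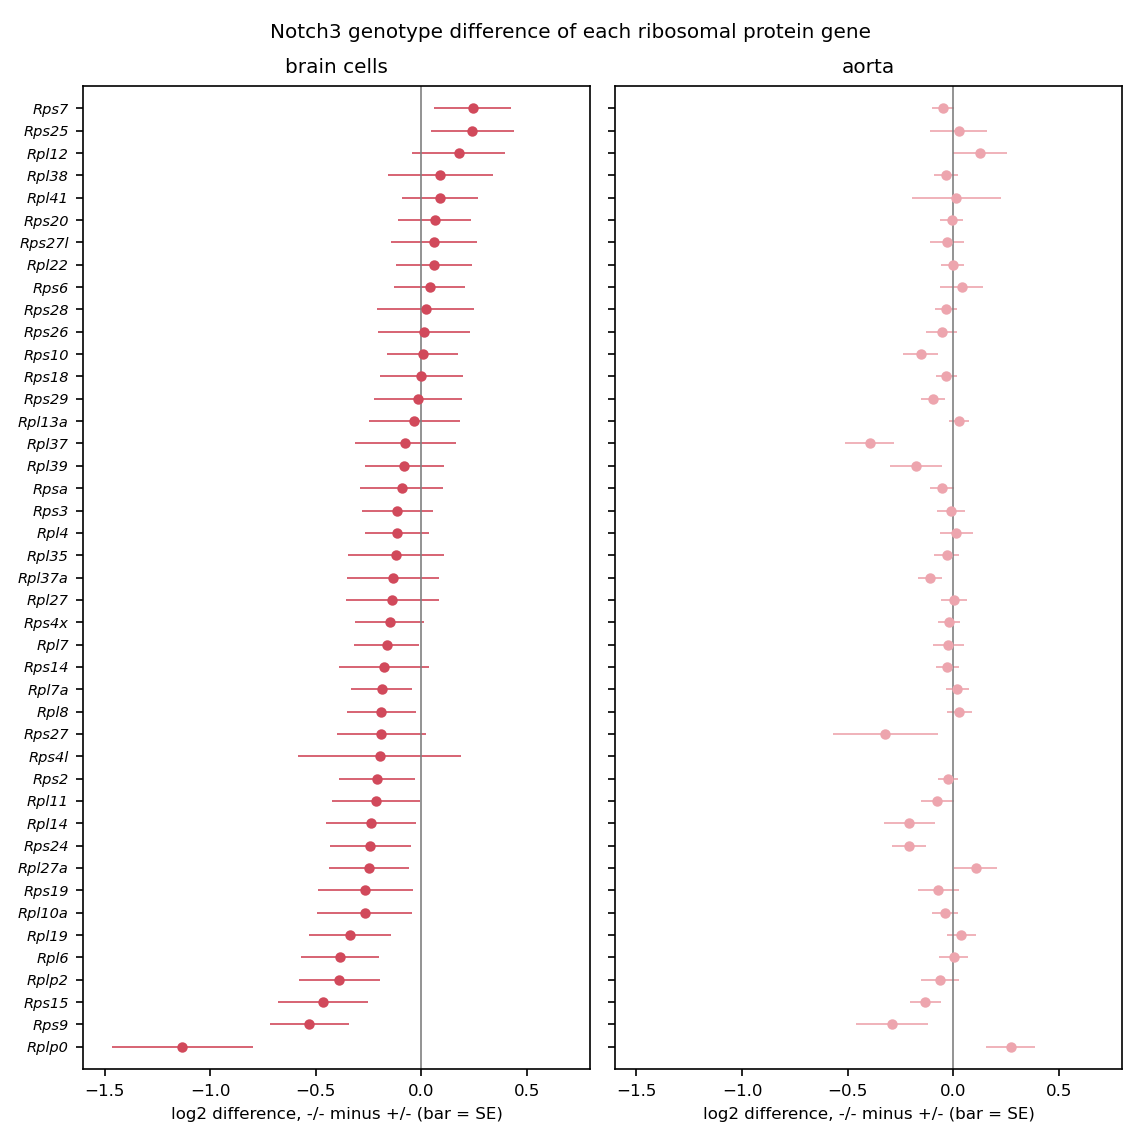
Log2 difference between Notch3 -/- and Notch3 +/- arrays for 43 ribosomal protein genes (points, brightest probe set; bars, SE) in sorted brain cells (left) and aorta (right), ordered by the brain value; Rps4l was not tested in aorta. No gene was called in either tissue; Rplp0 lies farthest from 0 in brain, at -1.13.

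Much of the shift in brain came with 1 control array. Array H was the highest of the 9 brain arrays for 29 of the 43 genes, where it was the highest for 18% of all probe sets, and array C of the -/- group was the lowest for 17, where it was the lowest for 8.25%. The median ratio of array H to the mean of the other 8 brain arrays was 1.47 over the ribosomal protein genes and 0.962 over all probe sets tested. It reached 3.05 for Rplp0, 2.16 for Rpl10a, 1.99 for Rps15 and 1.79 for Rps28, and fell to 0.671 for Rps4l. Without array H the median difference between genotypes over the tested genes was -0.02, with 23 lower and 20 higher, and without array C it was -0.05.

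The hybridisation spikes, bacterial transcripts added in fixed amount before hybridisation, were also high on array H: they summed to 137801, against 61630 to 83555 on the other brain arrays. On the aorta arrays they summed to 35975 to 41349. Their 9 probe sets read 1.80 to 2.11 times the mean of the other brain arrays. The summed level of 12 mural marker genes was 51557 to 84748 in +/- and 35325 to 42651 in -/- brain cells, the top again on array H. The part of the spikes, of array H and of the mural markers in the genotype differences was not tested beyond leaving out array H.

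**Figure D2:**
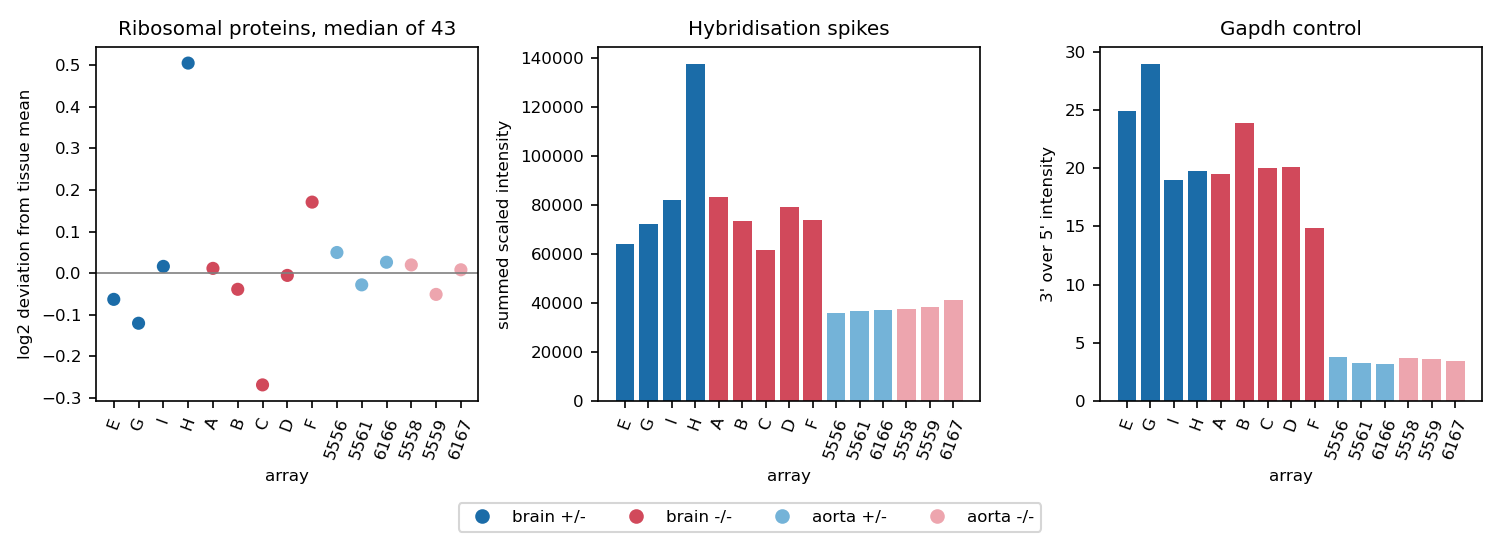
Left, median log2 deviation of 43 ribosomal protein genes from the mean of their tissue on each of 15 arrays; middle, summed scaled intensity of the hybridisation spikes; right, ratio of the 3' to the 5' Gapdh control probe set. Array H of the brain +/- group stands at 0.51 in the left panel while the 6 aorta arrays lie between -0.05 and 0.05, and the Gapdh ratio is 14.9 to 28.9 in brain and 3.14 to 3.76 in aorta.

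Aorta showed smaller values on tighter replicates. By limma 0 of 42 genes were called, as for all probe sets tested (0%). At an unadjusted p under 0.05 there were 3 (Rplp0 higher, Rpl37 and Rps24 lower in -/-), where 4.35% of all probe sets were. The median log2 difference was -0.03, and 3 genes did not overlap between genotypes, all lower in -/-, where 4.75% of all probe sets were lower without overlap. Small subunit genes had 18 of 20 values below 0 with a median of -0.04, and large subunit genes 11 of 22 with a median of 0.00.

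Rpl37, a zinc-binding large subunit protein, read 588, 476 and 564 on the +/- and 401, 375 and 449 on the -/- aorta arrays, without overlap. The log2 difference was -0.40 ± 0.12 (SE, adjusted p = 0.999 by limma). Rps24, a small subunit protein needed to mature the 18S rRNA, read 4966, 4138 and 4758 against 4013, 3774 and 4174, with 1 array of each group overlapping, a difference of -0.21 ± 0.08 (adjusted p = 0.999). Rps9 and Rpl14 were the other genes without overlap, at -0.29 and -0.21. Both came out of 3 arrays a group and neither passed p under 0.05 unadjusted. Rps9 read 4378, 2644 and 2672 on the +/- and 2545, 2567 and 2576 on the -/- arrays, so the size of its difference rests on array 5556. Its 3 tested probe sets ranged from -0.29 to 0.26, the widest gap of any gene in this comparison. Rplp0 ran the other way from brain, at 2689, 2601 and 3573 in +/- and 3759, 3516 and 3348 in -/- aorta, a difference of 0.27 ± 0.12 (adjusted p = 0.999).

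The genotype difference itself did not differ between tissues past the threshold for any gene. In the fit over 15 arrays 0 of 43 genes were called, where 0.0178% of all probe sets were, and 1 gene, below 0, had an unadjusted p under 0.05, where 2.26% of all probe sets did so below 0. This was Rplp0, with a brain difference lower than the aorta difference by 1.40 log2 units (SE 0.47, adjusted p = 0.831 by limma). Rps4l followed at -1.03 ± 0.59, then Rpl6 at -0.39, Rpl19 at -0.38 and Rpl27a at -0.35, each with an adjusted p of 0.997.

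Between tissues many of these genes were called. In Notch3 +/- mice 8 genes were higher and 9 lower in brain cells than in aorta of 43 tested, by limma, 18.6% and 20.9%, where 26.5% and 25.2% of all probe sets were. In Notch3 -/- mice 6 were higher and 14 lower, 14% and 32.6%, where 33.6% and 28.9% of all probe sets were. The median difference was -0.10 in +/- and -0.22 in -/-, against 0.07 and 0.11 over all probe sets. In either direction 39.5% of the genes were called in +/- and 46.5% in -/-, against 51.8% and 62.5% of all probe sets, a description with no test. With quantile normalization in place of the deposited scaling the counts became 3 higher and 22 lower in +/-, where 24.5% and 25.9% of all probe sets were, and 4 higher and 28 lower in -/-, where 31.1% and 30% were.

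The +/- and -/- comparisons share no array. Of 43 genes 38 had the same sign in both, 6 were higher in both and 8 lower in both, and 0 were called in opposite directions. The 14 genes are 82.4% of those called in +/- and 70% of those called in -/-. The matching shares over all probe sets were not computed. As 51.8% of all probe sets were called in +/- and 62.5% in -/-, this overlap cannot be called particular to ribosomal protein genes. Across the 43 genes the differences correlated at r = 0.93, a value across genes, which share their tissue, extraction and probes between the comparisons. Large subunit genes were called higher 2 and lower 3 times of 22 in +/-, and small subunit genes 6 and 6 times of 21.

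The 8 genes called higher in brain cells of +/- mice were 6 small subunit genes and 2 large subunit genes, and they were bright and dim alike. Rps28 read 16583, 16123, 13473 and 31342 on the +/- brain arrays and 9513, 8876 and 9308 on the +/- aorta arrays, and every brain array lay above every aorta array. Its log2 difference was 0.99 ± 0.26 (SE, adjusted p = 0.00841 by limma) in +/- and 1.04 ± 0.14 in -/- mice, where brain read 14355 to 21913 and aorta 8822 to 9387. Array H supplied the top brain value, and without it the +/- difference was 0.73, still called.

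Rps29 followed at 12147 to 24128 in +/- brain and 7853 to 8585 in +/- aorta, without overlap, with a log2 difference of 0.94 ± 0.23 (adjusted p = 0.00587 by limma) and 1.02 ± 0.14 in -/-. Rpl38, whose loss in mice disturbs the patterning of the skeleton, read 7253 to 19832 against 5775 to 6260, a difference of 0.85 ± 0.29 (adjusted p = 0.0273) and 0.98 ± 0.14 in -/-; the +/- call was lost without any 1 of the 3 aorta arrays, at 0.82 to 0.88. Rps20, a protein of the head of the small subunit, differed by 0.68 ± 0.18 and 0.75 ± 0.12. Rps2, at the messenger RNA entry, differed by 0.62 ± 0.19 and 0.44 ± 0.13, and its +/- call was lost in the 3 fits without 1 aorta array. These differences rest on the deposited scaling: under quantile normalization Rps28 was at 0.00, Rps29 at 0.11, Rpl38 at 0.33 and Rps20 at 0.10 in +/-, none of them called, and Rps2 turned to -0.13 in +/- and -0.16 in -/-. In -/- Rps29 (0.37), Rpl38 (0.46) and Rps20 (0.21) were still called under quantile normalization, and Rps28 (0.18) was not.

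Rps4l read 50.9, 153, 99.5 and 59.3 in +/- brain and 7.28, 41.6 and 10.9 in +/- aorta, a log2 difference of 1.59 ± 0.39 (adjusted p = 0.00573 by limma), and 0.56 ± 0.37 in -/-, where it was not called. Rps27, a zinc-finger protein of the small subunit, read 131 to 252 against 57 to 136, with overlap, a difference of 0.77 ± 0.28 (adjusted p = 0.0381) that was called in 2 of the 7 fits with 1 array left out; in -/- it was 0.90 ± 0.19. Its paralogue Rps27l, a target of p53, went the other way, at 395 to 711 in +/- brain and 1223 to 1321 in +/- aorta without overlap, a difference of -1.36 ± 0.21 (adjusted p = 0.000281) and -1.27 ± 0.16 in -/-. Rpl27a, the other gene called higher, differed by 0.62 ± 0.21 in +/-, where the call was lost in the 3 fits without 1 aorta array, and by 0.26 ± 0.14, not called, in -/-.

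**Figure D3:**
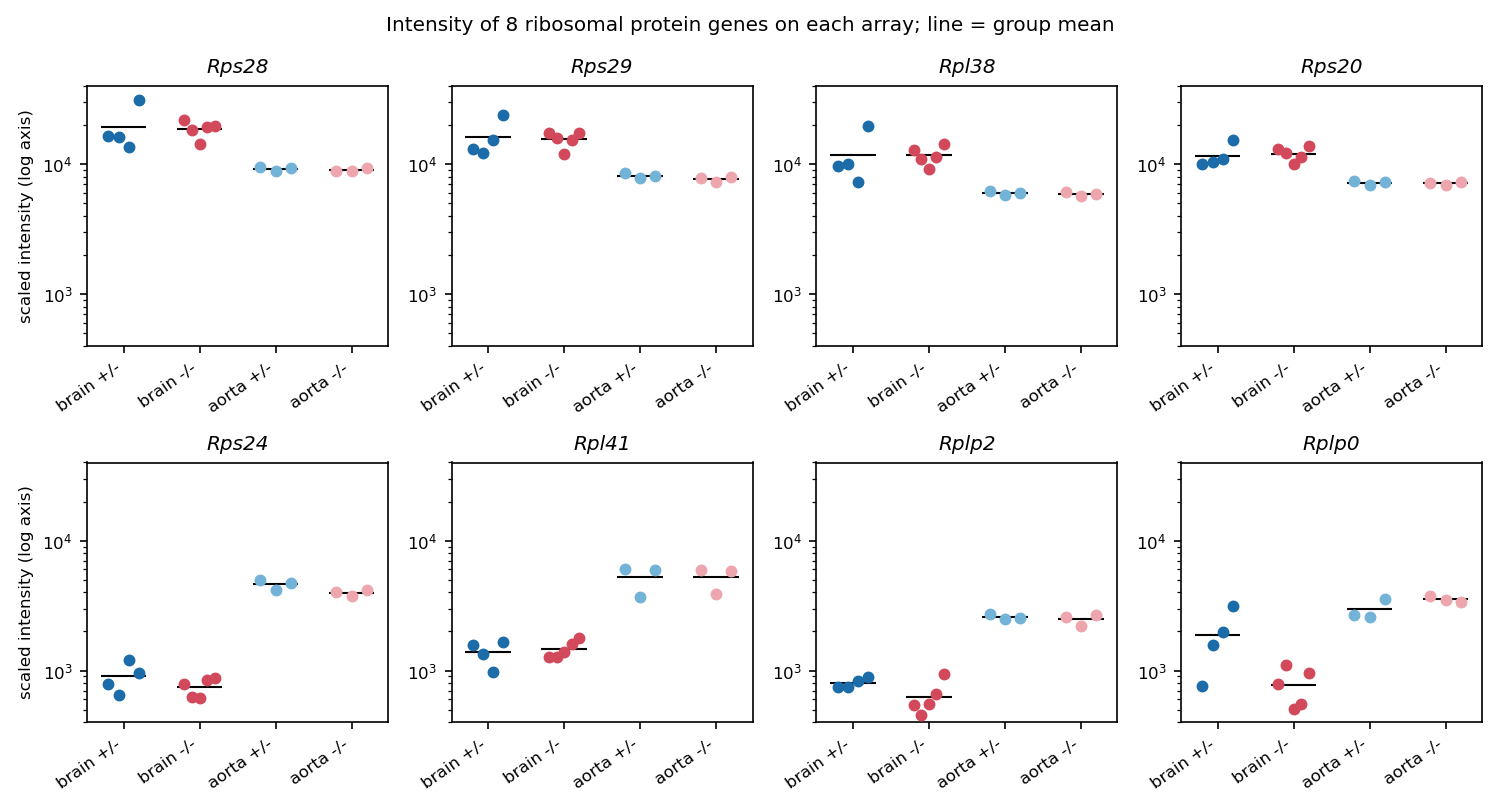
Scaled intensity (log axis) of 8 ribosomal protein genes on each of 15 arrays in 4 groups; points are arrays and lines group means. In the deposited scaling Rps28, Rps29, Rpl38 and Rps20 lie higher on brain arrays, though none of the 4 was called in +/- mice under quantile normalization, where Rps28 differs by 0.00 and Rpl38 by 0.33, and Rps24 and Rplp2 lie lower on them, as does the brightest probe set of Rpl41, whose probe sets disagree; Rplp0 is spread widely in brain.

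The genes lower in brain were led by Rps24. It read 790, 652, 1216 and 949 on the +/- brain arrays and 4966, 4138 and 4758 on the +/- aorta arrays, without overlap. The log2 difference was -2.37 ± 0.21 (SE, adjusted p = 5.26e-06 by limma), and -2.40 ± 0.14 in -/-, where brain read 619 to 872 and aorta 3774 to 4174. Both differences were called whichever array was left out.

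Rplp2 of the stalk read 741 to 899 in +/- brain and 2479 to 2725 in +/- aorta, a log2 difference of -1.67 ± 0.15 (adjusted p = 5.25e-06 by limma), and -2.00 ± 0.19 in -/-. Rplp0, its anchor, was at -0.81 ± 0.37 in +/- (adjusted p = 0.0905), where array H lay above 2 of the 3 aorta arrays, and fell to -2.22 ± 0.22 in -/- (adjusted p = 1.14e-06), where the groups did not overlap. Without array H the +/- value was -1.12 and was called (adjusted p = 0.0132 by limma), and without array E it was -0.44 and was not. Under quantile normalization Rplp0 was called in +/- too, at -0.94.

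Rps19 and Rps26 were lower by -1.08 ± 0.20 and -1.02 ± 0.22 on the log2 scale in +/-, and by -1.27 ± 0.21 and -0.96 ± 0.18 in -/-. Rps19 read 373 to 669 in +/- brain and 1033 to 1081 in +/- aorta, and Rps26 read 1363 to 2492 and 3519 to 3715, both without overlap. Rpl37 was lower by -1.20 ± 0.21 in +/- and -0.88 ± 0.22 in -/-. Rps15 (-0.66 ± 0.22) and Rps10 (-0.52 ± 0.14) completed the lower genes of the +/- comparison. Rps15 was called in only 1 of the 7 fits with an array left out, the one without array H. Rps10 was not called in -/- at its brightest probe set, but of its 6 tested probe sets 4 were called lower and 1 higher there. In -/- mice 4 more large subunit genes were called lower by small amounts: Rpl7a (-0.42 ± 0.12, adjusted p = 0.00601 by limma), Rpl6 (-0.41 ± 0.14), Rpl27 (-0.41 ± 0.14) and Rpl7 (-0.31 ± 0.12). Of the 8 fits with an array left out, Rpl7a was called in 8, Rpl6 in 6, and Rpl27 and Rpl7 in 4 each.

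Several genes known for special roles were not called between tissues in Notch3 +/- mice. Rpsa, also named the laminin receptor, averaged 7671 in +/- brain and 6534 in +/- aorta. Rps6, the target of the S6 kinases, differed by -0.20 ± 0.16 in +/- and by -0.20 ± 0.16 in -/-. Rps25, needed by some internal ribosome entry sites, was at -0.11 ± 0.24 and 0.11 ± 0.14, and Rpl10a at -0.03 ± 0.27 and -0.26 ± 0.13. Rpl11, which binds Mdm2 with the 5S rRNA, was at -0.28 ± 0.21 in +/- and was called lower in -/-, at -0.42 ± 0.17 (adjusted p = 0.0417 by limma), a call that held in only 1 of the 8 fits with an array left out, the one without array F.

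**Figure D4:**
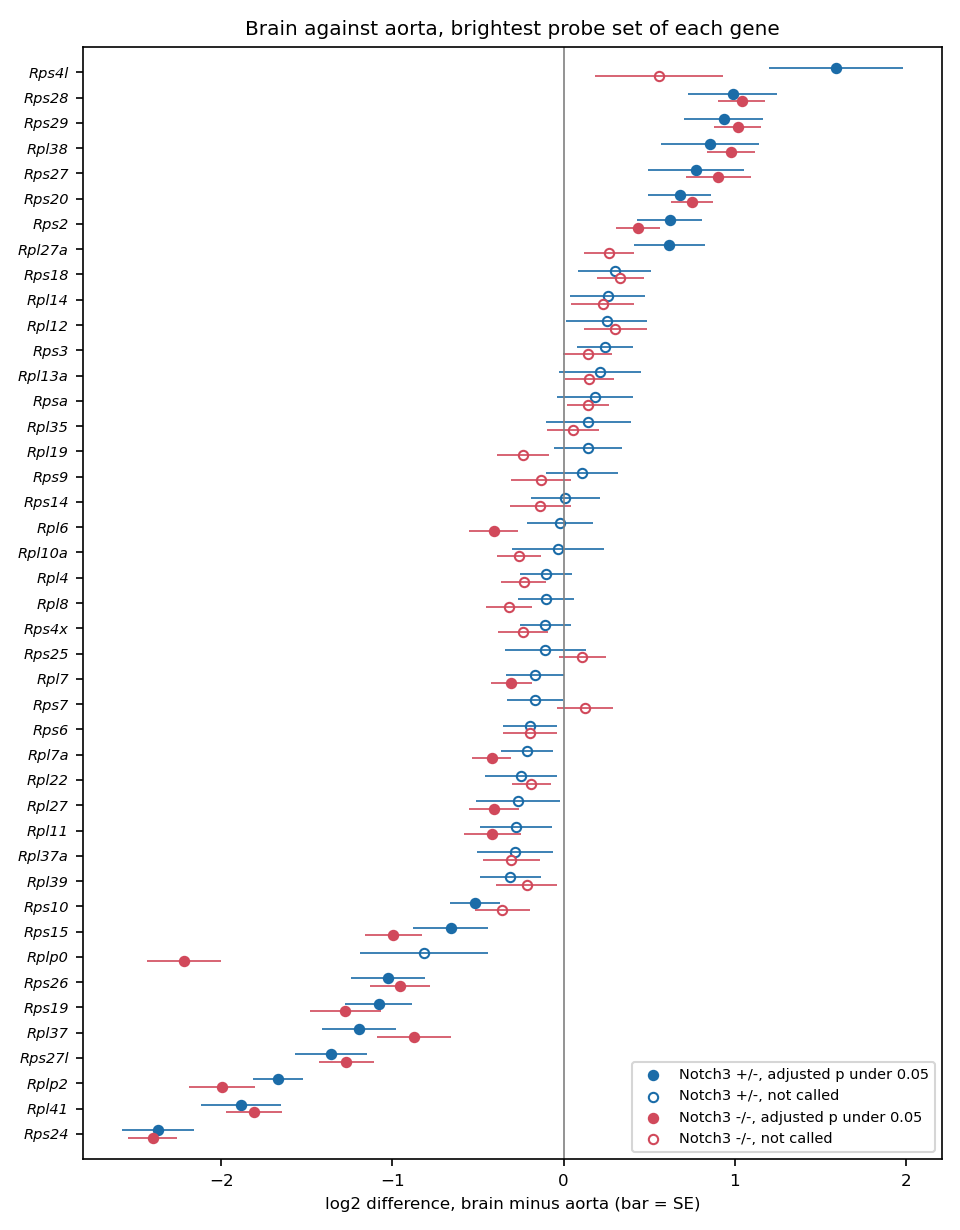
Log2 difference between brain cells and aorta for 43 ribosomal protein genes in Notch3 +/- (blue) and Notch3 -/- (red) mice at the brightest probe set, ordered by the +/- value; bars are SE and filled points have an adjusted p under 0.05 by limma. In the deposited scaling 38 of 43 genes have the same sign in both, from Rps24 at -2.37 and -2.40 to Rps28 at 0.99 and 1.04. Rps4l, at the top in +/- (1.59 against 0.56), and Rplp0 (-0.81 against -2.22) lie apart between genotypes. Neither Rps4l nor Rplp0 was called when the genotype difference was compared between tissues. Under quantile normalization Rps2 lies below 0 in both.

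The counts were also split by brightness. Of 21 genes with a mean of at least 5000 in +/- aorta, 5 were called higher, 1 lower and 15 not, where 30% of all probe sets at that level were higher and 35% lower. Of 22 genes under 5000, 3 were called higher and 8 lower, where 26.5% and 25.1% of all probe sets at that level were. Under quantile normalization 0 of the 21 bright genes were called higher and 11 lower. The shares over all probe sets at that level were not computed under this normalization. These counts therefore cannot be called particular to ribosomal protein genes. The highest intensity on an array was 22148 to 44479 in brain and 12675 to 13169 in aorta. Leaving out array H raised the count of lower genes in +/- from 9 to 17, while 8 were higher; 26.4% of all probe sets were then lower and 26.8% higher. The count of higher genes in +/- was 5 without aorta array 5556, 4 without 5561 and 4 without 6166. Shares over all probe sets are not given here for these fits, so the drop cannot be called particular to ribosomal protein genes.

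Probe sets of the same gene often gave different answers between tissues. Among the 19 genes with several tested probe sets in +/-, the gap between the lowest and highest log2 difference of a gene had a median of 1.82, and 1.88 in -/-, against 0.18 for the genotype difference in brain and 0.09 in aorta. The gap exceeded 1 log2 unit for 11 genes in +/- and 13 in -/-. Probe sets were called in opposite directions for 1 gene in +/- (Rpl41) and for 3 in -/- (Rpl41, Rps10 and Rpl35).

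Rpl41, which encodes a peptide so short that it is among the smallest proteins of the cell, had the widest gap, 4.86 log2 units in +/-. Its brightest probe set, 1455578_x_at, averaged 1394 ± 309 (SD, n = 4) in +/- brain and 5213 ± 1316 (SD, n = 3) in +/- aorta, a log2 difference of -1.89 ± 0.23 (SE). Probe set 1454639_x_at averaged 563 ± 106 and 58.6 ± 19.1, a difference of 2.97 ± 0.22 in the other direction. Another, 1433530_at, gave 1.50 ± 0.20, and the remaining 1 gave -0.77 ± 0.19, so that 2 probe sets were called higher and 2 lower by limma. No direction between tissues can be given for Rpl41 from these arrays.

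The next widest gaps were those of Rps9 (2.40), Rpl13a (2.25) and Rps18 (2.12), and in each the brightest probe set was not called while at least 1 dimmer probe set was called lower. For Rps9 the brightest, 1434624_x_at, was at 0.11 ± 0.21, and 1433689_s_at was at -2.30 ± 0.16, reading 247 ± 31.0 in +/- brain and 1271 ± 32.8 in +/- aorta. Rps28 and Rps29, by contrast, were called higher at all 3 of their probe sets in the deposited scaling, with gaps of 0.14 and 0.22. All probe sets of Rps29, and all but the brightest of Rps28, end in _x_at. Under quantile normalization neither gene was called in +/- at its brightest probe set. Rps24 was called lower at all 5 of its tested probe sets, from -2.69 to -0.71.

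**Figure D5:**
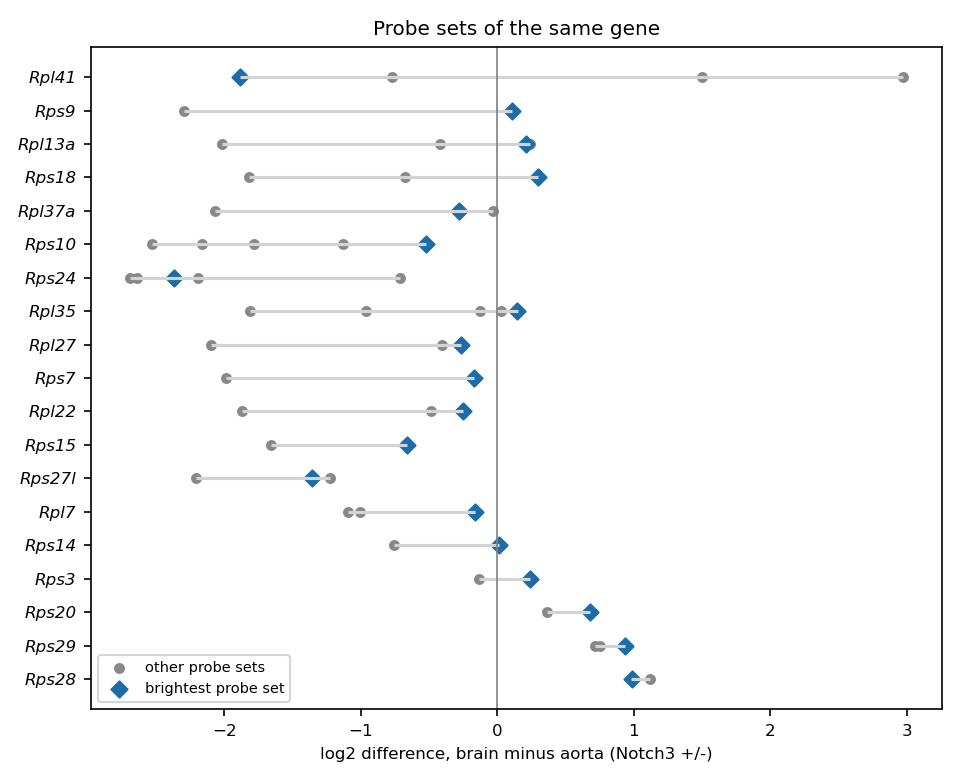
Log2 difference between brain cells and aorta in Notch3 +/- mice for each tested probe set of the 19 ribosomal protein genes with several (diamond, brightest; grey, others), ordered by the gap within a gene. In the deposited scaling Rpl41 spans from -1.89 to 2.97, while Rps28 spans from 0.98 to 1.12.

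The ratio of 3' to 5' signal within control transcripts moved with tissue. Gapdh read 14.9 to 28.9 times more at its 3' than at its 5' control probe set on brain arrays and 3.14 to 3.76 times on aorta arrays, and the beta-actin ratio was 28.5 to 70.1 and 3.09 to 3.95. Brain cells were sorted straight into lysis buffer and aorta was extracted with Trizol, so tissue, cell makeup and preparation cannot be told apart in these differences. The hybridisation spikes, added in fixed amount, also read higher on brain arrays in the deposited scaling, at 61630 to 137801 against 35975 to 41349 on aorta arrays. The part of the control ratios and of the spikes in the tissue differences was not tested.

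Other genes of the translation machinery were compared between tissues in the deposited scaling alone. Fau, whose product releases a further small subunit protein, was lower in brain by -1.20 ± 0.23 in +/- and -1.24 ± 0.17 in -/-. Rpl22l1, the paralogue of Rpl22, was lower by -2.21 ± 0.19 and -2.50 ± 0.14, where the brightest probe set of Rpl22 itself was at -0.25 and -0.19 and not called, but another of its 3 probe sets was called lower in both, at -1.87 and -1.84. Rps3a1, a small subunit gene whose symbol the naming rule misses, was at -0.53 ± 0.15 and -0.78 ± 0.15, called in both. In +/- mice, mitochondrial ribosomal proteins were called higher 9 and lower 30 times of 75 tested (median -0.31), translation factors 4 and 11 times of 27 (median -0.22), and ribosome assembly genes 1 and 8 times of 21 (median -0.26), where 26.5% of all probe sets were higher and 25.2% lower, with a median of 0.07. None of these lists had a called gene in either genotype comparison.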

How the data were processed

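Deposited files hold linear intensity per probe set; the authors scaled each array to a target of 150 after hybridising 15 µg of cRNA, per the labels. Probe summarisation, background correction and detection calls: not given in the sources used here. Symbols were updated by Entrez identifier from RefSeq (GRCm38.p6). Values were taken as log2(intensity + 16). The 64 control probe sets were left out, as was the dimmer part of the rest (mean log2 value below the median over the arrays compared). Two-sided tests used limma 3.58.1 (lmFit, then eBayes with a trend; R 4.3.3) and Benjamini-Hochberg adjustment at 5%, each genotype or tissue comparison on its own arrays, and were tested on simulated data. The number of arrays limits the precision. Named genes were the stalk proteins, Rpsa, Rps6, Rps19, Rps25, Rpl10a, Rpl11, Rpl38 and paralogue pairs, the 5 smallest p in each genotype comparison, the 6 largest called differences in each direction between tissues, the 4 widest probe-set gaps, and the 3 brightest and 3 dimmest genes of a group; others were named after their values were seen. Genes and lists were chosen with earlier results of these data known. Alternatives varied scaling, pseudocount, filter, variance model, probe sets and arrays.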

Additional observations from a re-analysis of the deposited data

Results flagged for a closer look

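In 3 of 74 checks within the brain groups of 4 and 5 arrays, 1 array stood apart from the rest of its group by Dixon's criterion. Chance meets this criterion in about 1 check in 20. The checks took 32 genes and some array measures in both groups. They share the same arrays and are not independent, so 3 of 74 cannot be set against that rate. Rpl10a read 9136 on array H of the Notch3 +/- brain cells, where the other 3 read 3805 to 4452. Rps20 read 15317 on the same array, against 10041 to 10886. Rpl19, a large subunit protein, read 7947 on array F of the Notch3 -/- brain cells, against 4975 to 5741 on the other 4.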

How the results depend on the processing

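In the genotype comparisons 0 genes were called under every alternative except in brain without array E, where 1 (Rplp0) was, a range of 0 to 1 over the arrays left out. Between tissues in +/-, quantile normalization gave 3 higher, 22 lower and a median of -0.41; in -/- it gave 28 lower and a median of -0.51, and turned Rps2 to -0.16. Leaving out probe sets ending in _x_at or _s_at gave 5 higher in +/- and 3 in -/-, and Rpl41 at 1.50 and 1.67. In that fit 26.5% and 33.6% of all probe sets were higher. Rpl38, Rps2 and Rps29 have only probe sets with these endings and could not be called there. Rps20 kept only probe sets that read 4.12 to 37.8. The smaller counts of higher genes thus come with lost probe sets and do not show changed values. Averaging the probe sets of a gene gave 16 lower in +/- and 22 in -/-, where 25.2% and 28.9% of all probe sets were, and Rpl41 at 0.46 and 0.47. Without a filter on dim probe sets 5 were higher in +/-. Over the arrays left out in turn, +/- counts ranged from 4 to 8 higher and from 7 to 17 lower. Shares over all probe sets are not given here for the fit without a filter or for those without an aorta array. The causes of these changes were not tested. No paired analysis was possible because the groups share no replicate names. Fitting the 2 number series of the aorta names as a block gave 0 calls.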
